A study of Gallus gallus with 4 samples.

Results

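Genes that were partly covered by H3K9me3 domains and expressed in the same cell type were examined in chicken. The cells were primordial germ cells in culture (cPGCs) and embryonic stem cells (ESCs). cPGCs are migratory precursors of sperm and eggs that were grown in vitro, and ESCs are derived from the early embryo and serve as the somatic counterpart. H3K9me3, the trimethylated form of histone H3 at lysine 9, was pulled down from chromatin (Abcam ab8898), giving 1 immunoprecipitated and 1 input library per cell type, with no treatment or genetic change in the labels. The data are the positions of the resulting H3K9me3 domains on galGal5, and no value below has a replicate error or a p-value. Cell identity could not be checked from positions of domains. Members were chosen by 2 readouts of the same cell type: at least 25% of the gene locus lay in domains, and the transcript level was at least 30 TPM, a unit normalised for transcript length and sequencing depth. The coverage also had to stay below 75% in both cell types. A locus comprises the transcribed region and the 500 bp before its start, and its coverage is the percentage of its bases that lie in domains. Of 1999 loci, 50 met this rule, 28 of them in cPGCs and 29 in ESCs, with 7 genes chosen in both. The 1999 loci are the first part of the paper's gene list, so shares over all loci do not stand for the genome.

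H3K9me3 is a mark of heterochromatin. It is written by histone methyltransferases such as SETDB1 and SUV39H1, is bound by HP1 proteins, and is found mostly over repeats, gene-poor regions and silent genes. Transcription starts at a promoter, and a mark that lies inside a gene and not over its start has a different position relative to that promoter. The strand of the loci was not used here, so both ends of a locus are described and the promoter is at either of them.

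Any overlap with a domain was found for 28.9% of the 1999 loci in cPGCs and for 37.8% in ESCs. Coverage of at least 25%, and below 75% in both cell types, was found for 9.1% in cPGCs and for 11% in ESCs. TPM values were at hand for 1893 of the loci, and 701 of these reached the TPM threshold in cPGCs and 591 in ESCs. Members thus made up 3.99% of the expressed genes in cPGCs and 4.91% in ESCs. Of the partly covered genes with a TPM value they made up 16.5% and 13.9%. The upper limit removed 2 further expressed genes in cPGCs and 9 in ESCs, of which 1 was covered at 75% or more in cPGCs only. These counts follow from the rule and carry no test.

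Coverage of the members ranged from 28.4% to 70.8% in the 28 loci chosen in cPGCs, with a median of 41.7%. In the 29 loci chosen in ESCs it ranged from 25.9% to 73.2%, with a median of 47.1%. Just inside the lower limit were *MEX3D* at 28.4% in cPGCs and *ST14* at 25.9% in ESCs. Just outside were *CTNNA3* at 23.9% in cPGCs and *WDR61* at 24.7% in ESCs. At the upper limit, *MED1* was covered at 70.8% in cPGCs and *UAP1* at 73.2% in ESCs, and the nearest expressed genes beyond it were *GJC1* at 80.5% and *TARDBP* at 80.9%. In ESCs, *NT5C3B* lay closest above the TPM threshold and *KRT14* closest below it. In cPGCs, *PRKAR1B* lay closest below it. The single TPM values were used for the choice only and are not given.

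The covered part of a member was usually a single stretch. Domain calling joined enriched windows across short gaps, so such a stretch need not be marked at every base. In 47 of the 57 cases (a case is a gene in a cell type that chose it; 82.5%) the locus was overlapped by 1 domain. In the loci over 2000 bp with the same range of coverage and a TPM below 30, this was so in 207 of 318 cases (65.1%). This set was made per cell type, so it can hold genes chosen in the other cell type. Such genes were *XPR1* in cPGCs and *B4GALNT4*, *BRD2*, *CPNE2*, *MED1* and *RANBP10* in ESCs. The number of domains in a locus goes with its length. Among loci over 10 kb, 1 domain was found in 16 of 19 members in cPGCs and in 8 of 14 in ESCs, against 52 of 98 and 51 of 106 loci of lower TPM. The remainder of the locus included a long free stretch in most members, which coverage below 75% favours. The longest stretch without a domain made up at least 25% of the locus in 27 of 28 members in cPGCs and in 29 of 29 in ESCs. In loci of lower TPM this was so in 121 of 140 and 154 of 178 cases. In cPGCs its median length was 6883 bp, and in ESCs it was 3847 bp. The exception among the members was *TAF12* in cPGCs, whose free bases were divided over both ends with 1040 bp at most in a stretch.

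**Figure D1:**
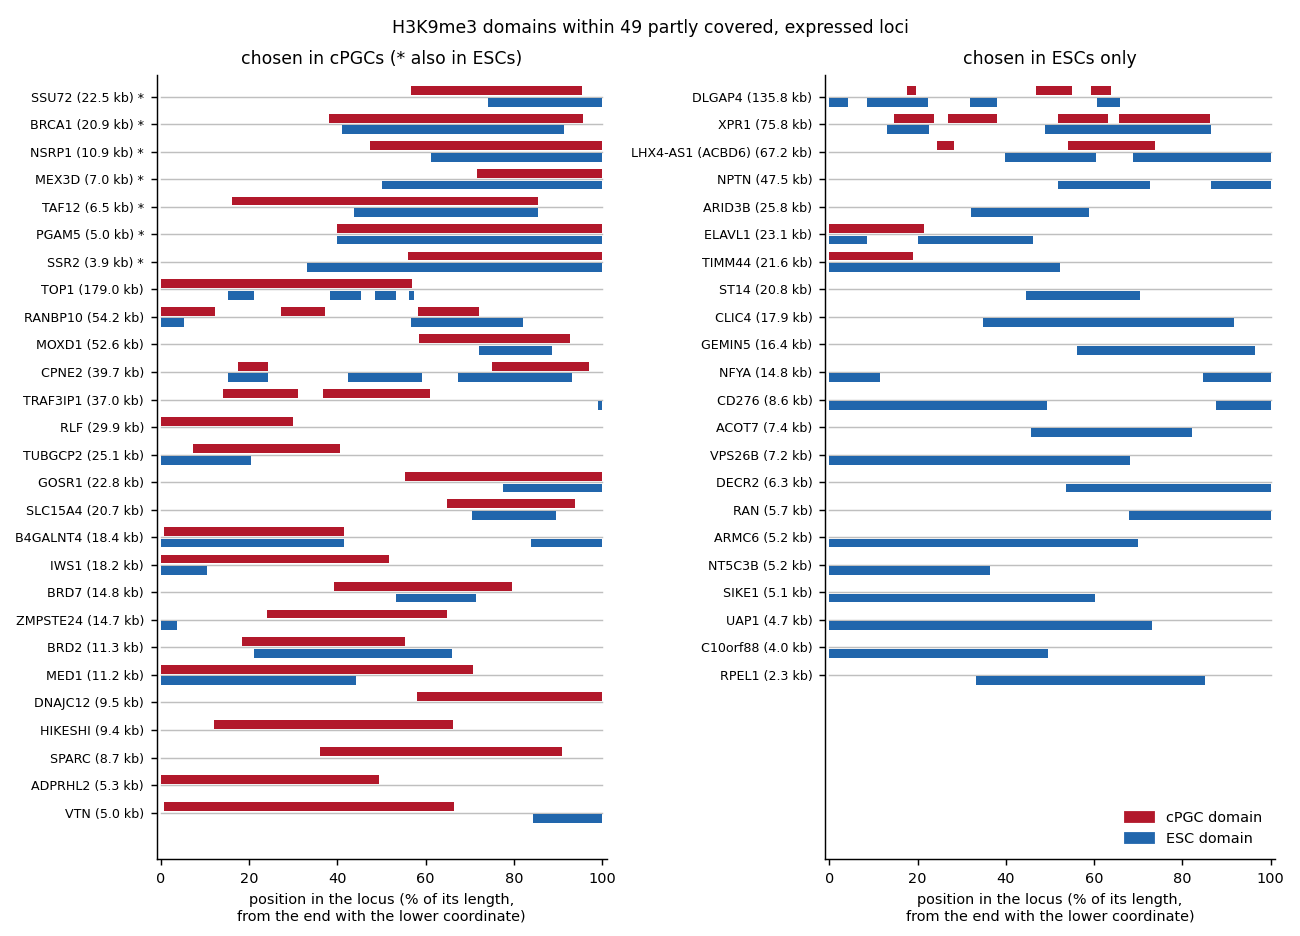
Position of H3K9me3 domains in 49 of the 50 loci. The x axis is the position in the locus in percent of its length, from the end with the lower coordinate, and red and blue bars are domains of cPGCs and ESCs; locus lengths stand beside the names and asterisks mark the 7 genes chosen in both cell types. The bars of most loci form a single block that reaches 1 end or neither, which the upper limit on coverage favours. Of the 22 loci on the right, 17 have no red bar.

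Both ends were rarely covered together, in members as in loci with the same range of coverage and lower TPM. The upper limit on coverage favours this in both sets. A single domain over both ends would cover most of a long locus and exceed that limit. An end was called covered when at least 50% of its terminal 1000 bp lay in domains. In cPGCs, 14 of the 28 members had 1 covered end, 14 had neither end covered, and 0 had both. In ESCs, 19 of the 29 members had 1 covered end, 8 had neither and 2 had both, *CD276* and *NFYA*. In loci of lower TPM both ends were covered in 10 of 140 cases in cPGCs (7.14%) and in 10 of 178 in ESCs (5.62%). In the 22 cases with neither end covered, the promoter lay outside the domains or in a window covered by less than 50%, whichever end it is at. In 17 of the 57 cases no base of either terminal window lay in a domain, against 78 of 318 cases in loci of lower TPM. Loci with the same range of coverage and lower TPM had neither end covered in 54 of 140 cases in cPGCs (38.6%) and in 47 of 178 in ESCs (26.4%), against 50% and 27.6% of the members. The difference between members and these loci was thus 11.4 percentage points in cPGCs and 1.18 in ESCs, and it was not tested. Median coverage of the members was 41.7% in cPGCs and 47.1% in ESCs. In the loci of lower TPM it was 51.2% and 47.3%, so the comparison in cPGCs was not matched for coverage.

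Measured in bases, the terminal windows of the members in cPGCs were covered at 25.4% and the part between them at 46.1%. Loci of lower TPM, whose median coverage in cPGCs was higher, had 34.8% and 43.6%. In ESCs the windows of the members were covered at 40.3% and the part between them at 40.2%, and loci of lower TPM had 39.6% and 42.8%. These pooled shares of the middle give long loci more weight. In ESC members of up to 10 kb the windows were covered at 46.5% and the middle at 56.8%. In longer ones these shares were 33.7% and 38.4%. ESC loci of lower TPM had 45.2% and 57.8% up to 10 kb, and 35.9% and 42.0% above. The long locus of *TOP1* weighs on the value for the middle in cPGCs, which was 41.9% without it. Member loci were longer in cPGCs (median 16514 bp) than in ESCs (8604 bp), and short loci have less room for a domain that avoids the ends. Among loci of up to 10 kb, 3 of 9 members in cPGCs and 2 of 15 in ESCs had neither end covered. Among longer loci these numbers were 11 of 19 and 6 of 14, and in loci of lower TPM over 10 kb they were 47 of 98 and 37 of 106.

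**Figure D2:**
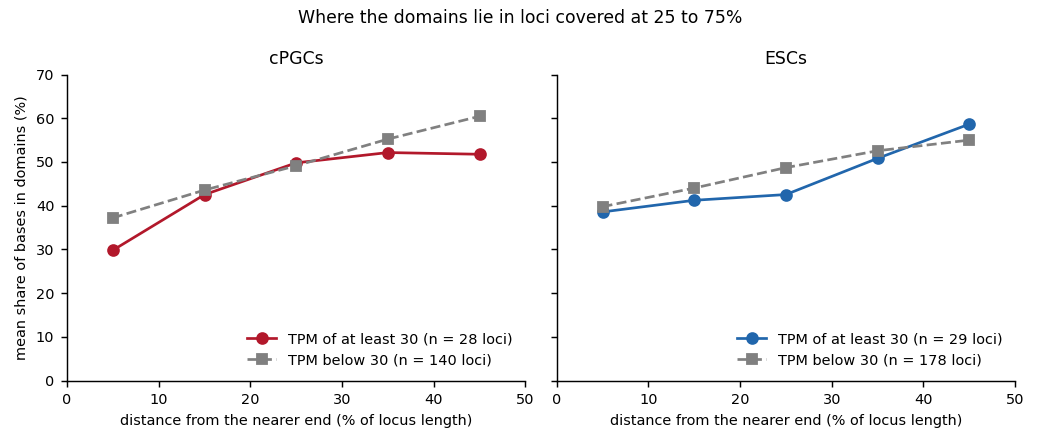
Mean share of bases in domains (y axis, percent) in 5 steps from the nearer end to the middle of the locus (x axis, percent of locus length), both ends averaged. Coloured circles are the members (28 in cPGCs, 29 in ESCs) and grey squares the loci with the same range of coverage and a TPM below 30 (140 and 178); in cPGCs the outermost step of the members is at 29.8% against 37.2% for the other loci, and in ESCs at 38.6% against 39.8%.

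Of the 70 domains over members in the cell types that chose them, 36 lay wholly inside the locus, 17 crossed the end with the lower coordinate and 17 the other end. Wholly inside were 20 of 32 domains in cPGCs (62.5%) and 16 of 38 in ESCs (42.1%), against 63.7% and 65.6% of the domains in loci of lower TPM, which more often held several domains. A crossing domain had a median of 58.6% of its bases inside the locus, and 12 of the 34 had less than 50% inside. The lowest share was that of a domain over *ELAVL1* in ESCs, with 1962 of 19800 bp in the locus, where a separate domain of 6000 bp lay inside. Domains over members had a median width of 7500 bp in cPGCs (2700 to 111900 bp) and 7200 bp in ESCs (1200 to 28500 bp). Since SICER islands were built from windows of 300 bp, an edge is known to that step at best.

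Genes of transcription and chromatin made up 9 of the 50 members. *BRD2* and *BRD7* encode bromodomain proteins that bind acetylated histones, and both were marked in the middle of the locus only. *BRD2* (chromosome 16, 102014 to 113361) carried a domain of 4200 bp in cPGCs that began 2087 bp from the lower end and stopped 5061 bp before the other end, and a domain of 5100 bp at nearly the same place in ESCs. Its coverage was 37.0% in cPGCs and 44.9% in ESCs, and only the cPGC value came with enough TPM. *BRD7* (chromosome 11, 6629901 to 6644729) was covered at 40.5% in cPGCs by 6000 bp and at 18.2% in ESCs by 2700 bp, the latter wholly within the former.

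*TAF12*, a subunit of the TFIID and SAGA complexes, was chosen in both cell types. Its locus of 6485 bp (chromosome 23, 2256761 to 2263245) was covered at 69.4% in the former and at 41.6% in the latter. Both domains ended at the same base, 945 bp before the upper end, and the cPGC domain reached 1800 bp further towards the lower end. *MED1*, a Mediator subunit that connects transcription factors with RNA polymerase II, had 1 covered end in both cell types and was covered at 70.8% (cPGCs) and 44.1% (ESCs). *SSU72*, a phosphatase of the polymerase tail, was covered at 38.6% and 25.9%. Its domain stopped 1044 bp before the upper end in cPGCs, whereas in ESCs it ran over this end. *IWS1*, a partner of the elongation factor SPT6, was covered at 51.6% (cPGCs) and 10.4% (ESCs), at the same end. *RLF*, a zinc finger protein, had 8956 of its 29881 bp covered in cPGCs, from the lower end, and no domain in ESCs. The reverse held for *ARID3B*, an AT-rich DNA-binding factor, at 26.7% in ESCs, and *NFYA*, a subunit of the CCAAT-binding factor NF-Y, at 26.8%, both without a domain in cPGCs. Coverage was higher in cPGCs for 6 of the 9 genes and higher in ESCs for 3, against 23 and 26 of all 50 members. The choice favours this direction, since 5 of the 9 were chosen in cPGCs only and 2 in ESCs only.

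*TOP1*, *BRCA1* and *ADPRHL2*, genes of genome maintenance, had higher coverage in cPGCs than in ESCs, as had 23 of all 50 members. The choice favours this direction, since *TOP1* and *ADPRHL2* were chosen in cPGCs only. *TOP1*, which encodes DNA topoisomerase I, had the most covered bases of any member. Its locus of 179007 bp (chromosome 20, 4864769 to 5043775) held 102032 covered bases in cPGCs, all in a single domain of 111900 bp that began 9868 bp outside the lower end. Coverage was 57.0% in cPGCs. In ESCs, 4 separate domains of 1800 to 12600 bp covered 18.4%, and 98.2% of their bases lay in the cPGC domain. These values depend on the gene model of galGal5, since *TOP1* is a shorter gene in the RefSeq annotation of the later assembly GRCg7b. The upper 76975 bp of the locus were free in cPGCs, and the upper 76375 bp in ESCs.

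*BRCA1*, a DNA repair gene, was chosen in both cell types. A domain of 12000 bp covered 57.5% of its locus (chromosome 27, 5573536 to 5594394) in cPGCs and a domain of 10500 bp covered 50.3% in ESCs. The ESC domain lay wholly within the cPGC domain. At both ends the locus was free, by 7965 and 894 bp in cPGCs and by 8565 and 1794 bp in ESCs. *ADPRHL2*, a hydrolase that removes ADP-ribose, had a domain over 49.3% of its locus in cPGCs, from the lower end, and none in ESCs.

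Genes for RNA-binding proteins numbered 4. *MEX3D* and *NSRP1* were chosen in both cell types, and *ELAVL1* and *GEMIN5* in ESCs only. Of all 50 members, 7 were chosen in both and 22 in ESCs only. For *MEX3D*, coverage was 49.9% in ESCs against 28.4% in cPGCs. For *NSRP1*, a splicing factor of nuclear speckles, it was 38.9% against 52.6%. In each of these genes the narrower domain was contained in the wider within the locus, and both domains ran over the same end. *ELAVL1*, which encodes the mRNA-stabilising protein HuR, was covered at 21.5% in cPGCs, below the limit, and 34.4% in ESCs. *GEMIN5*, a component of the complex that assembles spliceosomal particles, had an internal domain of 6600 bp in ESCs, which covered 40.3%, and was free in cPGCs.

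Transport of proteins was assigned as the role of 7 genes. *RAN*, the GTPase that drives traffic through nuclear pores, was covered at 32.2% in ESCs, where a domain of 6300 bp reached 1823 bp into its upper end. In cPGCs the nearest domain was 358 kb from the locus, the longest such distance among the members. *SSR2*, a subunit of the translocon-associated complex of the endoplasmic reticulum, was chosen in both cell types, with 44.0% in cPGCs and 66.8% in ESCs from the same end. *HIKESHI*, a nuclear importer of Hsp70, had an internal domain over 54.2% of its locus in cPGCs and none in ESCs. *VPS26B*, a retromer subunit, was free in cPGCs and covered at 68.2% in ESCs. *TIMM44*, of the mitochondrial import motor, was covered at 18.9% (cPGCs) and 52.2% (ESCs) from the same end. *GOSR1*, a Golgi SNARE, was covered at 44.8% and 22.4%. *RANBP10*, described in the annotation only as a RAN binding protein, was covered at 36.1% and 30.6%.

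Metabolic and mitochondrial genes included the only member with equal coverage. The domains over *PGAM5*, a mitochondrial phosphatase (chromosome 15, 1421517 to 1426476), had the same start and end in both cell types, spanned 5100 bp and covered 2976 of the 4960 bp of the locus. Of the 9 genes of this group, 5 were chosen in ESCs only and 3 in cPGCs only, which favours more coverage in ESCs. Coverage was higher in ESCs for 26 of all 50 members and for 6 of these 9 genes. Of these, *UAP1*, which makes UDP-N-acetylglucosamine, at 73.2% in ESCs, *RPEL1*, a ribulose-phosphate epimerase, at 52.0%, *DECR2*, a peroxisomal reductase, at 46.4%, *ACOT7*, an acyl-CoA thioesterase, at 36.5%, and *NT5C3B*, a nucleotidase, at 36.3%, had no domain in cPGCs. *ZMPSTE24*, the protease that matures lamin A, was covered at 40.9% in the middle in cPGCs and at 3.59% at 1 end in ESCs, with 0 bases in common. *B4GALNT4*, a glycosyltransferase gene, was covered at 40.8% in cPGCs and at 57.6% in ESCs. Its cPGC domain of 7500 bp lay wholly within an ESC domain of 36000 bp that also covered *PKP3* and *SIGIRR* completely, and the TPM threshold was met in cPGCs only. *MOXD1* was covered at 34.2% in cPGCs by a single internal domain of 18000 bp, which contained the ESC domain of 8700 bp.

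Of the 10 genes assigned to the cell surface, matrix and membranes, 4 were chosen in cPGCs only and 6 in ESCs only, against 21 and 22 of all 50 members. *SPARC*, a matrix glycoprotein, had an internal domain over 4800 of its 8727 bp in cPGCs and none in ESCs. *VTN*, which encodes vitronectin, was covered at 65.6% (cPGCs) and 15.7% (ESCs) at opposite ends. *CD276*, an immune checkpoint ligand, was covered at 61.6% in ESCs, *CLIC4*, an intracellular chloride channel protein, at 57.0%, *NPTN*, an adhesion molecule, at 34.3%, and *ST14*, the membrane protease matriptase, at 25.9%. These 4 genes had no domain in cPGCs. *XPR1*, a phosphate exporter, carried domains over 52.2% of its locus in cPGCs, where its TPM was below the threshold, and over 47.1% in ESCs, where it was above. Both ends of this locus were free in both cell types. *SLC15A4*, a peptide and histidine transporter, was covered at 29.0% and 18.9%, and *CPNE2*, a copine, at 28.7% and 51.4%, again without a covered end.

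Of the remaining 7 genes, *DNAJC12*, a co-chaperone, was covered at 42.1% in cPGCs and had no ESC domain. *TRAF3IP1*, a component of intraflagellar transport, had 2 internal domains in cPGCs that covered 41.3%, and 1.0% was covered in ESCs. *TUBGCP2*, a subunit of the gamma-tubulin complex, was covered at 33.4% and 20.3%. *ARMC6* at 69.8%, *SIKE1* at 60.1% and *C10orf88* at 49.5% were covered in ESCs only. The locus named *LHX4-AS1* in the annotation used here was covered at 23.7% (cPGCs) and 51.6% (ESCs). Its NCBI gene identifier belongs to *ACBD6*, a protein-coding gene, in the RefSeq table of the later assembly GRCg7b, so the name as an antisense RNA is uncertain. This locus lies directly beside *XPR1* on chromosome 8, and no domain spanned both.

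**Figure D3:**
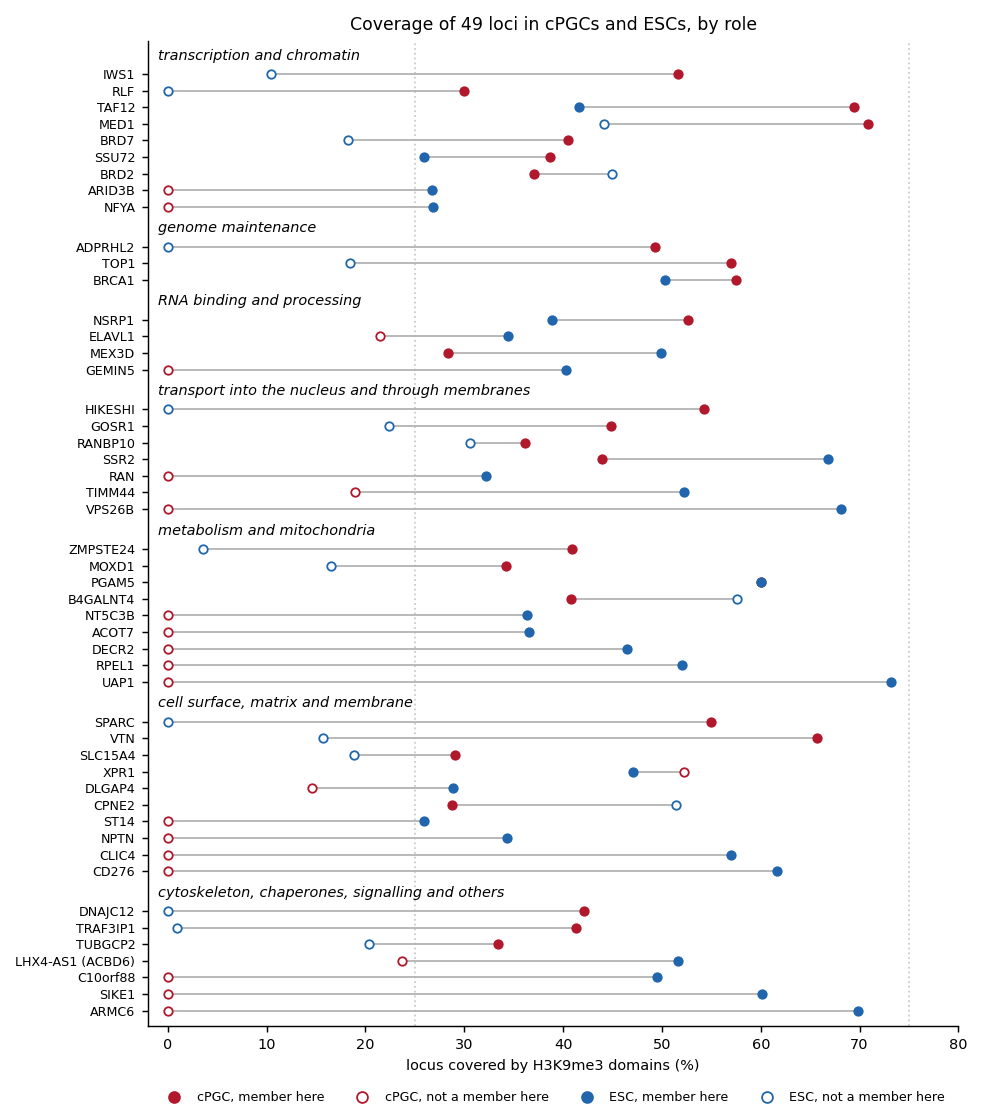
Coverage of 49 of the loci by H3K9me3 domains (x axis, percent of locus length) in cPGCs (red) and ESCs (blue), grouped by role. Filled circles mark the cell type in which the gene was chosen, dotted lines the limits of 25% and 75%, and the circles of *PGAM5* coincide. The 3 genes of genome maintenance shown have the red circle on the right, which a choice in cPGCs favours.

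In the other cell type most members had less coverage, which the lower limit favours. The 7 genes chosen in both cell types are among those at 25% or more in each of the following counts. Of the 28 genes chosen in cPGCs, 6 had no domain in ESCs, 10 were covered below 25% and 12 at 25% or more. Of the 29 genes chosen in ESCs, 17 had no domain in cPGCs (58.6%), 4 were covered below 25% and 8 at 25% or more. Absence of a domain was found for 62.2% of all 1999 loci in ESCs and 71.1% in cPGCs. Among loci with the same range of coverage and lower TPM, 30.3% of those chosen on cPGC coverage had no ESC domain, and 46.9% of those chosen on ESC coverage had no cPGC domain, against 21.4% and 58.6% of the members. The TPM threshold was also met in ESCs by 16 of the 28 genes and in cPGCs by 24 of the 29. Of all loci, 701 met it in cPGCs, 591 in ESCs and 774 in either cell type, and these unequal numbers bear on both counts. Of the 12 members covered at 25% or more in ESCs among those chosen in cPGCs, 5 missed the threshold there, *B4GALNT4*, *BRD2*, *CPNE2*, *MED1* and *RANBP10*.

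A difference of at least 25 percentage points between the cell types was found for 32 of the 50 members, 13 with more coverage in cPGCs and 19 with more in ESCs. Over all 1999 loci such differences were found for 9.3% in the direction of cPGCs and 9.2% in the direction of ESCs. The rule used both coverages and asks for at least 25% in 1 of them, so the shares among members are not comparable with those over all loci. Without a threshold, coverage was higher in cPGCs for 23 members and 18.7% of all loci, and higher in ESCs for 26 members and 24.1% of all loci. The largest difference in favour of ESCs was that of *UAP1* (0 against 73.2%), and the largest in favour of cPGCs was that of *SPARC* (4800 covered bp against 0).

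Domains of both cell types were present in 27 of the 50 loci. They shared bases in 24 of them. A median of 55.2% of the covered bases in cPGCs and of 76.5% in ESCs lay in domains of both. The ESC domains lay wholly within the cPGC domains, inside the locus, for 10 genes, and the reverse held for 5, with *PGAM5* in both counts. In *VTN*, *ZMPSTE24* and *TRAF3IP1* the domains had 0 bases in common. Of the 63 domain limits of cPGCs inside these loci, 4 coincided with an ESC limit of the same kind and 21 lay within 1500 bp of it.

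Where no domain of the other cell type touched a member, the distance to the next one varied widely. For the 6 genes chosen in cPGCs it was 1.09 to 17.4 kb from the locus. For the 17 genes chosen in ESCs it was 1.06 to 358 kb away with a median of 24.4 kb, and for 6 of them it was within 10 kb.

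**Figure D4:**
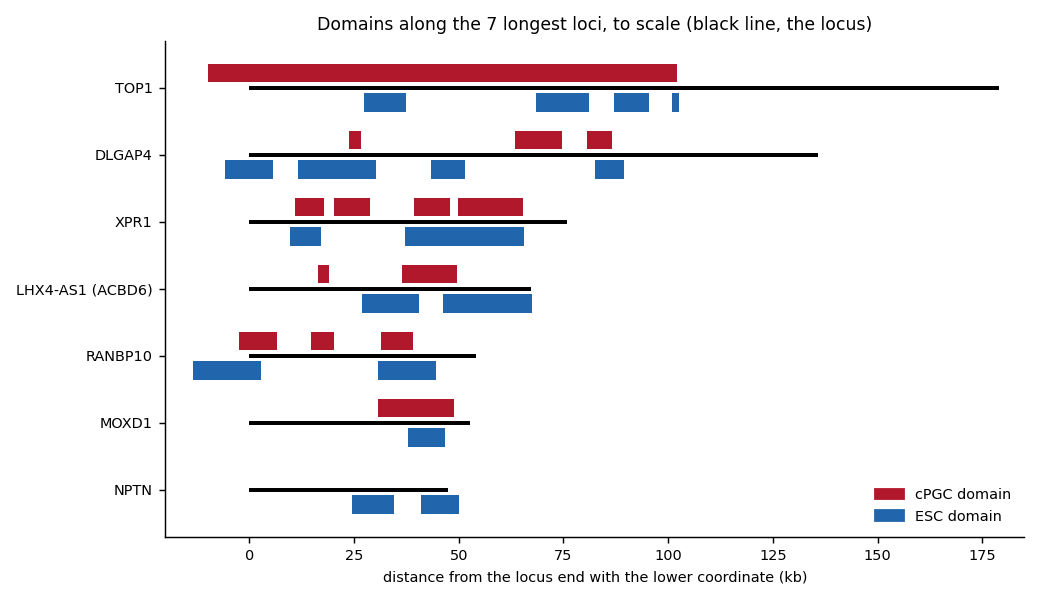
Domains along the 7 longest member loci, to scale. The x axis is the distance in kb from the locus end with the lower coordinate, black lines are the loci, and red and blue bars are domains of cPGCs and ESCs with the parts that lie outside; *TOP1* has a single red bar of 111900 bp above 4 blue ones, and *NPTN* has no red bar.

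The longest loci differed in how the domains were arranged. *DLGAP4*, a postsynaptic scaffold protein gene of 135842 bp (chromosome 20, 340572 to 476413), was covered at 28.9% in ESCs by 4 domains and at 14.6% in cPGCs by 3. Only 17.6% of its ESC domain bases were also in cPGC domains. In *XPR1* (75798 bp), 84.9% of the ESC domain bases were shared, and a single ESC domain of 28500 bp spanned what was divided in cPGCs. *RANBP10* (54190 bp) had 3 cPGC domains and 2 ESC domains, which shared 62.0% of the bases covered in ESCs.

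Several members lay beside genes that shared their domain. Of the 70 domains, 11 also overlapped another of the 1999 loci, which gave 11 pairs of a member and a neighbour. The neighbour was covered more than the member in 6 pairs and less in 5. The domain over the lower end of *IWS1* in cPGCs covered *PROC*, the gene of the anticoagulant protein C, completely. *COL8A2*, a collagen gene that shared the cPGC domain of *ADPRHL2*, was covered at 85.6%. In ESCs a domain of 18600 bp covered *TREM-B1*, a receptor gene of myeloid cells, completely and reached 2258 bp into *NFYA*. Neighbours outside the 1999 loci were not analysed here.

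In some members an end of the locus overlapped a neighbouring locus, by 50 to 961 bp. Each locus includes the 500 bp before its start, so the overlap may lie in these bases. Whether the transcribed regions overlap was not examined. There were 10 such genes and 11 cases with a single overlapped end, and the overlapped end was covered in 2 cases and the opposite end in 7. The covered ones were *VPS26B*, whose locus overlaps that of *NCAPD3*, and *NFYA*, whose locus overlaps that of *OARD1*, both in ESCs. The uncovered ones included *BRCA1* beside *NBR1*, *TUBGCP2* beside *ZNF511*, *UAP1* beside *UHMK1* and *ARMC6* beside *SUGP2*. In loci with the same range of coverage and lower TPM, the overlapped end was covered in 10 of 31 cases (32.3%) and the opposite end in 15 (48.4%). These counts were made after the positions had been seen, and the difference was not tested.

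Families here are groups of genes taken by the prefix of the symbol, and genes in a group need not be related. Among them were the Mediator subunits, the TAF proteins, the bromodomain genes, the import translocases, the VPS genes and the DnaJ genes. Genes with SSR and SEC symbols were also joined. The families comprised 58 loci, 18 of them members. Of the 58, 31 (53.4%) had no domain in either cell type, against 55.1% of all 1999 loci. The families were picked because they hold a member, so some covered loci in each are given. Among the 40 loci that are not members, coverage of 25% or more was found for 1 in each cell type, in both cases *SEC16B*, at 47.9% in cPGCs and 52.9% in ESCs. The rule had already taken partly covered, expressed loci out of the families, so a low number among the 40 is partly set by the choice. Of the 1999 loci, members included, 407 reached this coverage in cPGCs and 441 in ESCs. *MED1* was covered at 25% or more whereas the other 5 Mediator loci were not, and *TAF12* whereas the other 4 TAF loci were not. Of the 5 DnaJ loci beside *DNAJC12*, *DNAJC18* was covered at 14.1% in ESCs and the others had no domain. Such contrasts between a member and its family are favoured by the choice and were not tested.

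Gene descriptions with a nuclear word, such as transcription, RNA or bromodomain, occurred for 13 of the 50 members (26%), including the locus with the uncertain name *LHX4-AS1*. They occurred for 9.8% of all 1999 loci, for 14.3% of the 774 genes that reached the TPM threshold in either cell type and for 6.05% of the 248 loci with the same range of coverage and lower TPM. Words for membranes, receptors and transport occurred for 6 members (12%), against 13.6% of all loci, 8.91% of the expressed genes and 16.9% of the loci of lower TPM. Words for mitochondria, the Golgi apparatus, chaperones and the like also occurred for 6 members, against 4.8% of all loci, 9.17% of the expressed genes and 1.21% of the loci of lower TPM. The words were chosen with earlier results of these data known, which can favour the members in these comparisons. The choice by expression also bears on these shares, and no test was made.

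Members lay on 23 of the 28 chromosomes with loci. The 1999 loci were spread unevenly, with 21 on chromosome 1, 1 on chromosome 2 and 6 on chromosome 3, against 150 on chromosome 26. Chromosomes 1 to 8 held 11 of the members (22%), against 15.9% of all loci. Chromosome 23 held 5 (10%), against 5.85% of all loci. The read depth behind each domain list is unknown, and breadth called from a single library does not show how high the enrichment was. Domains were measured in populations of cells, so a domain and a transcript of the same gene in different cells, or on different alleles, cannot be told apart from both on the same copy.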

How the data were processed

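H3K9me3 ChIP-seq libraries of cPGCs and ESCs, 1 immunoprecipitated and 1 input library each, were processed by the authors. Reads were aligned to galGal5 with Bowtie 2, and only uniquely mapped proper pairs were kept, so repeats that reads cannot tell apart are not covered. Domains are SICER islands (windows of 300 bp) on autosomes with a very low false-discovery rate or with an overlapping MACS2 broad peak. Enriched windows were joined across short gaps. The deposited values are domain starts and ends counted from 0, with no count, score or signal, and 1 was added to both for printing. Depth is unknown, so no counting interval is given, and no sequence was printed because no galGal5 genome was used.

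Locus limits, names and TPM values came from the supplementary tables of the paper, of which the first 1999 loci were used and the others were not analysed here. TPM (Salmon, means of replicates) served only for the choice, and the tables' fold changes, p-values and coverage columns were not used. Missing symbols were taken from RefSeq (GRCg7b) by NCBI gene identifier, 2 of them for members, *MEX3D* and *RPEL1*. Coverage and positions were computed with Python 3.11.15, numpy 2.4.6 and pandas 2.3.3, and 11 of 11 checks on simulated loci returned the known answer; figures used matplotlib 3.10.9. End windows were compared in loci over 2000 bp. Members, roles, families and words were chosen with earlier results of these data known, and the roles were assigned by hand. Members were named except for 1, which is counted but not reported here. Alternatives changed the thresholds, the domain list and the windows.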

Additional observations from a re-analysis of the deposited data

How the results depend on the processing

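Of 61 recomputed values, 51 stayed within a set limit. For counts the limit was 1.5 times the reported count. For shares of bases it was the 95% Wilson interval over end windows, which was also applied to the share of the middle. That interval treats end windows as independent trials, which they are not, so it is a yardstick and not a test. All recomputed shares of bases stayed within it. With a TPM of at least 50, 27 genes were members, 16 chosen in cPGCs, 15 in ESCs and 4 in both, and 12 cases had no domain in the other cell type. With a TPM of at least 20, 45 genes were chosen in ESCs and 11 in both. Then 35 of 83 cases had no domain in the other cell type. These counts change together with the number of cases. With only domains of at least 5000 bp, 4 genes were chosen in both. In loci up to 10 kb, a restriction added after seeing the data like that to longer loci and the omission of *TOP1*, 5 of 24 cases had neither end covered. In longer loci it was 17 of 33. Over all loci the number of such cases was 22 of 57. With other windows and domain lists the count ranged from 16 (of 43 cases) to 25 (of 57). As a share of the cases it was lowest when any overlap of the window counted, at 17 of 57, and highest at 25 of 57. No paired analysis was possible because each cell type has 1 library of each kind, and no library could be left out. The depth of the libraries limits which domains were called, and this was not tested.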
